A study of Mus musculus with 70 samples.

Results

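The mitochondrially encoded transcripts are the genes whose symbol starts with mt- in 5 tables of counts from sorted mouse microglia. The mouse mitochondrial genome carries 37 annotated genes, namely 13 mRNAs, 2 rRNAs and 22 tRNAs, and 28 of them had a line in at least 1 table, out of 25806 genes in all. All 13 mRNAs and both rRNAs were in every table, while the tRNAs with a line numbered 3 in the postnatal table, 11 in the table titled BLZ, 7 in the vehicle and UC2288 table, 4 in the adult-titled Jung table and 5 in the adult Littman table. The study asked what tamoxifen, the drug that switches on CreERT2 recombinase, does to microglia of Cx3cr1CreERT2 mice. Microglia are the resident macrophages of the brain. Cells were sorted from brain as CD11b+ CD45+ Ly6G- CD206-, 500 cells were lysed, and poly(A) RNA was counted at its 3′ end by CEL-Seq2 with molecular identifiers, in 70 libraries of 17 groups.

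The 5 tables hold different animals and treatments. The postnatal table holds pups that all received tamoxifen except for 1 oil group: Littman Cx3cr1CreERT2 heterozygotes (Cre+, n = 5) and their Cx3cr1 wild-type counterparts (Cre-, n = 5), both given tamoxifen, and Jung Cx3cr1CreERT2 heterozygotes that also carry 1 Rosa26YFP reporter allele, given oil (n = 5) or tamoxifen (n = 4). The vehicle and UC2288 table holds Littman pups that received either the corn oil vehicle with 2% DMSO or UC2288 at 100 mg/kg, a compound the labels give as an inhibitor of CDKN1A function. Its groups are vehicle tamoxifen Cre- (n = 5), vehicle tamoxifen Cre+ (n = 4), vehicle oil Cre+ (n = 4), UC2288 tamoxifen Cre- (n = 3) and UC2288 tamoxifen Cre+ (n = 5). Pups were given 0.1 mg tamoxifen on days P1 and P3 or 0.2 mg on days P5 and P7, and were collected at P8 or P14, with the schedule not given per sample. Adults were 6 to 15 weeks old and received 4 mg tamoxifen by injection 2 times, or oil. The adult Littman table holds heterozygotes after oil (n = 4) or tamoxifen (n = 3), and the adult-titled Jung table holds heterozygotes without the reporter after oil (n = 4) or tamoxifen (n = 4). The BLZ-titled table holds adult Littman heterozygotes (oil n = 3, tamoxifen n = 4) and Jung heterozygotes with Rosa26YFP (oil n = 4, tamoxifen n = 4). The Littman mice of this table received BLZ945 at 100 mg/kg, an inhibitor of the receptor CSF1R that depletes microglia. For the Jung mice the treatment labels place BLZ945 on the adult-titled libraries and not on the BLZ-titled ones, the reverse of the titles; groups are named here by title, and whether a Jung library had BLZ945 is not settled. In both lines CreERT2 sits in the Cx3cr1 gene, so every Cre+ animal, oil-treated ones included, has 1 Cx3cr1 allele replaced, whereas the Cre- animals have both.

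Mitochondrial DNA is transcribed from both strands into long RNAs, from which the tRNAs are cut out and the rRNAs and mRNAs released between them. The mRNAs encode core subunits of the respiratory chain and of ATP synthase, and the rRNAs build the mitochondrial ribosome that translates them; all other proteins of these machines come from nuclear genes. Most mitochondrial mRNAs and the rRNAs carry short poly(A) tails, which is what an oligo(dT) primer can capture, and tRNAs largely do not.

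Because the assay reads the 3′ end, the last bases of each transcript decide what can be assigned to it. The mouse nuclear genome holds old insertions of mitochondrial DNA, annotated as pseudogenes, and some keep these ends letter for letter. Below are the last 75 bases of 7 of the mRNAs (GENCODE transcripts, GRCm38, + strand). They were chosen to show 3 ends with no copy found in nuclear transcripts. Of the others, 1 has a copy in part and 3 have one along nearly the whole end. Capitals mark bases inside a run of at least 81 bases, the insert read of these libraries, that is identical in a nuclear transcript.
mt-Nd1 (chrM:3633-3707): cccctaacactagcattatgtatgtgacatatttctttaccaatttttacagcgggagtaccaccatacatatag
mt-Nd4 (chrM:11470-11544): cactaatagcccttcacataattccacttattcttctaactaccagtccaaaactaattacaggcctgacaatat
mt-Cytb (chrM:15214-15288): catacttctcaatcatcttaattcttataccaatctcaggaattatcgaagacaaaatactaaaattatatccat
mt-Nd2 (chrM:4877-4951): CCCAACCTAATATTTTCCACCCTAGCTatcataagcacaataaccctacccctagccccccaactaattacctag
mt-Co1 (chrM:6798-6872): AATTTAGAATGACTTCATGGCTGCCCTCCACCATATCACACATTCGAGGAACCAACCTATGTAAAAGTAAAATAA
mt-Co2 (chrM:7622-7696): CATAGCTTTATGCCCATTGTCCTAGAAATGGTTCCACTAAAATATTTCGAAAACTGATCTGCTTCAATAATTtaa
mt-Co3 (chrM:9316-9390): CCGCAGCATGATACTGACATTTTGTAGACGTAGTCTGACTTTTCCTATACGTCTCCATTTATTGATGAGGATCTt

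Of the windows of 81 bases in the last 300 bases of a transcript, all (100%) of those of mt-Co1 were found in a nuclear transcript, as were 98.6% of those of mt-Co2, mt-Atp6, mt-Nd3 and mt-Nd4l and 99.5% of those of mt-Co3. The share was 22.3% for mt-Nd2 and 0% for mt-Rnr1, mt-Rnr2, mt-Nd1, mt-Nd4, mt-Nd5, mt-Nd6, mt-Cytb and mt-Atp8. Farther from its end mt-Nd4 does have a nuclear copy. Over its whole length 61.3% of the windows were found in the pseudogene Gm28439, which held 2990 counts in the vehicle and UC2288 table. For mt-Nd5 the share over the whole length was 1.0%. The 6 genes with shared ends encode cytochrome oxidase subunits (mt-Co1, mt-Co2, mt-Co3), an ATP synthase subunit (mt-Atp6) and complex I subunits (mt-Nd3, mt-Nd4l). Together they held 2.05% of all mitochondrially encoded counts in the postnatal table, 2.10% among vehicle and UC2288 libraries, 4.01% among BLZ-titled, 1.02% among adult-titled Jung and 0.909% among adult Littman libraries. Whether the authors kept reads with more than 1 match is not given in the sources used here, and its part in these low levels was not tested. mt-Atp8 also had only 1 to 6 counts per table, though no match to its end was found in a nuclear transcript. It overlaps mt-Atp6 by 43 bases. Sequence outside annotated transcripts was not searched. On chromosome 1 the copies of mt-Atp6 (Gm10925, ending at 24614651) and mt-Co2 (Gm28661, starting at 24614885) lie on either side of a short stretch. Whether that stretch holds a copy of mt-Atp8 was not tested. mt-Nd6, the 1 mRNA of the other strand, overlaps the end of mt-Nd5 by 14 bases; away from them the ends of the pair lie apart, but without a stated strand setting RNA of the opposite strand over either gene cannot be told apart from its own.

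Levels per kilobase of gene spanned a wide range within each table. In the vehicle and UC2288 table mt-Rnr2, the large rRNA, stood at 27160.0 CPM per kb (CPM here on the summed counts of the whole table), the small rRNA mt-Rnr1 at 20170.0, and mt-Nd6 at 15980.0. The + strand mRNAs without a shared end lay lower, with mt-Nd1 at 8836, mt-Cytb at 6403, mt-Nd4 at 4702 and mt-Nd5 at 3911. In the same unit mt-Co1 was at 1256, mt-Co2 at 275, mt-Co3 at 41.0, mt-Nd3 at 7.82 and mt-Atp8 at 4.85. The tables did not show 1 order: in the BLZ-titled table mt-Nd6 at 8057 stood above mt-Rnr2 at 7531, mt-Cytb at 5927 and mt-Nd1 at 6015 stood above mt-Rnr1 at 4125, and mt-Atp6 reached 808. With 3′ counting a transcript gives 1 tag whatever its length, so these per-kb values are a scale for comparison and not a number of molecules. The place of mt-Nd6 depends on this scale. In counts, mt-Rnr2 had 37679 and mt-Nd6 13224 in the BLZ-titled table. In the vehicle and UC2288 table mt-Nd6 had 33532 counts and mt-Nd1 34182. The tRNAs summed to 75 counts in the postnatal table, 434 in the BLZ-titled table, 270 in the vehicle and UC2288 table, 42 in the adult-titled Jung table and 29 in the adult Littman table. mt-Tp, the proline tRNA, held 230 of the 270 in the vehicle and UC2288 table, and mt-Ti, the isoleucine tRNA, 129 of the 434 in the BLZ-titled table.

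**Figure D1:**
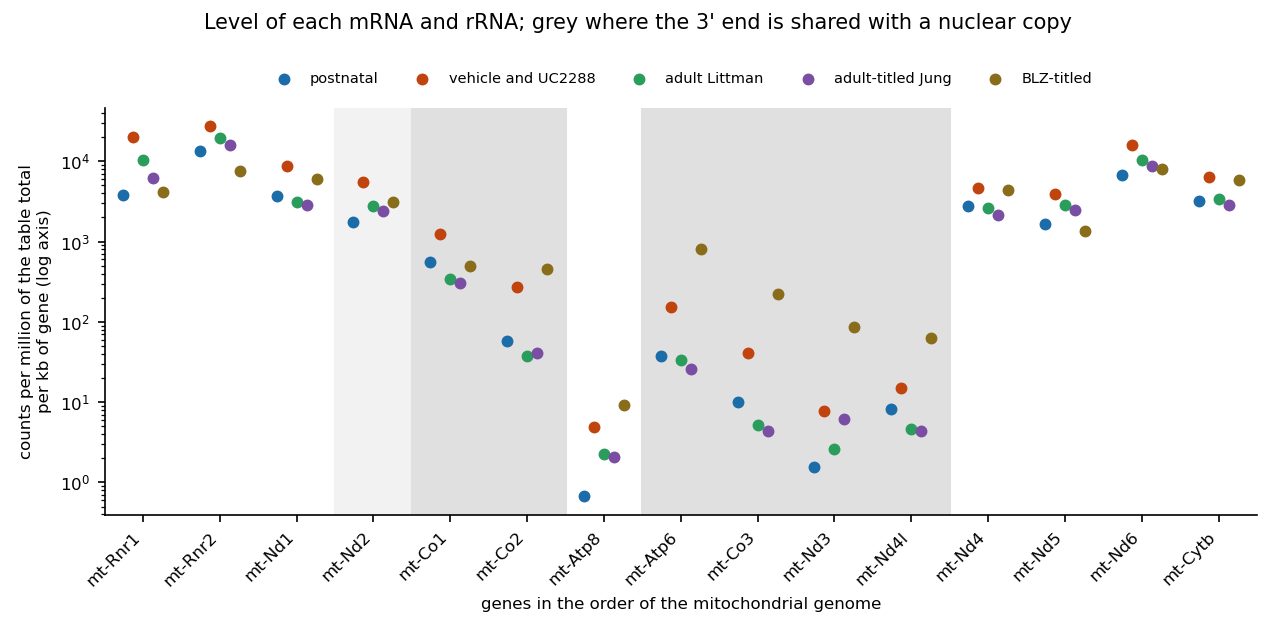
Each point is 1 mRNA or rRNA in 1 table, as CPM of the table total per kb of gene (log axis), in genome order; dark grey bands mark the 6 genes whose 3′ end is shared with a nuclear copy and the light band mt-Nd2, shared in part. The dark-banded genes and mt-Atp8 lie below the other unbanded ones in every table. On this per-kb scale mt-Rnr2 is highest in every table but the BLZ-titled one, where mt-Nd6 is. In counts mt-Rnr2 is above mt-Nd6 there too (37679 against 13224).

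A library held 116083 to 277680 counts in the vehicle and UC2288 table, which has the shallowest library, 184513 to 236106 (BLZ-titled), 274120 to 304794 (adult-titled Jung), 288396 to 347941 (adult Littman) or 329329 to 450461 (postnatal). No label says that libraries of a group came from separate animals, so the p-values below measure the spread between libraries, which may be technical. All 8 markers of microglia were counted in every group of every table. The labels were checked with Cx3cr1, the gene that carries the CreERT2 insert, which was lower in Cre+ than in Cre- pups in both pup tables (-1.43 ± 0.071 and -1.54 ± 0.21, log2 fold change ± SE). Cdkn1a, the gene of the cell cycle inhibitor p21, was higher in the same comparisons (2.40 ± 0.18 and 2.85 ± 0.27). In bulk RNA of a sort, fewer cells of a type and less RNA per cell cannot be told apart.

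The share of a library's counts that came from mitochondrial genes set the vehicle and UC2288 table apart, at 10.8% of all its counts against 4.50% in the postnatal table, 4.64% in the BLZ-titled table, 5.17% in the adult-titled Jung table and 6.50% in the adult Littman table. Tables may have been processed apart, so groups were compared only within a table, and no test was made of the share, which is a sum over the genes. Among postnatal groups the mean share was 5.59% ± 0.625 (SD, n = 5) in tamoxifen-treated Littman Cre+ pups, 4.49% ± 0.478 (n = 5) in Cre- pups, 3.77% ± 0.103 (n = 5) in Jung oil pups and 3.85% ± 0.193 (n = 4) in Jung tamoxifen pups. The 5 Cre+ libraries, at 6.69, 5.12, 5.33, 5.37 and 5.45%, all lay above the 5 Cre- libraries, at 4.81, 5.01, 4.39, 3.77 and 4.49%. Among vehicle pups the mean was 13.8% ± 1.75 (n = 5) in tamoxifen Cre-, 10.2% ± 1.49 (n = 4) in oil Cre+ and 8.78% ± 0.823 (n = 4) in tamoxifen Cre+ libraries. So by mean the Cre+ tamoxifen group was the highest of its table in the postnatal series and the lowest in the vehicle series. Its vehicle libraries, at 7.757% to 9.587%, overlapped those of oil Cre+, at 8.925% to 12.32%. They lay below those of tamoxifen Cre-, at 11.14% to 15.9%. The difference between the tables was not tested.

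The mRNA and rRNA parts of that share did not move together. In vehicle pups the 13 mRNAs made up 3.62, 3.23, 2.85 and 2.12% of counts in the 4 tamoxifen Cre+ libraries, against 5.56, 5.88, 6.01 and 6.57% in the 4 oil Cre+ libraries and 5.17, 5.36, 5.16, 5.38 and 5.79% in the 5 tamoxifen Cre- libraries. Every tamoxifen Cre+ library was below every library of both control groups. The rRNAs made up 5.97, 5.26, 4.91 and 7.15% in tamoxifen Cre+, 4.72, 3.04, 6.30 and 2.89% in oil Cre+ and 9.21, 9.01, 8.27, 5.76 and 10.1% in tamoxifen Cre- libraries, and the tamoxifen Cre+ range overlapped both. As a portion of mitochondrially encoded counts alone, the rRNAs came to 61.9% to 77.0% in tamoxifen Cre+, 30.5% to 51.2% in oil Cre+ and 51.7% to 64.0% in tamoxifen Cre- libraries. This ratio overlapped between genotypes after tamoxifen. Tamoxifen and oil did not overlap among vehicle pups, but Cre- came close to oil (51.69% against 51.17%). UC2288 tamoxifen Cre+ library 3, at 49.96%, lay inside the oil range. With UC2288 the Cre+ pups had mRNA shares of 3.12, 4.41, 5.25, 4.01 and 3.09% and the Cre- pups 4.03, 4.18 and 6.41%, 2 ranges that overlap. In the adult Littman table the rRNA share ran from 2.58% to 7.41% in 3 tamoxifen libraries, a wider spread than that of the 4 oil libraries, 2.13% to 4.47%.

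**Figure D2:**
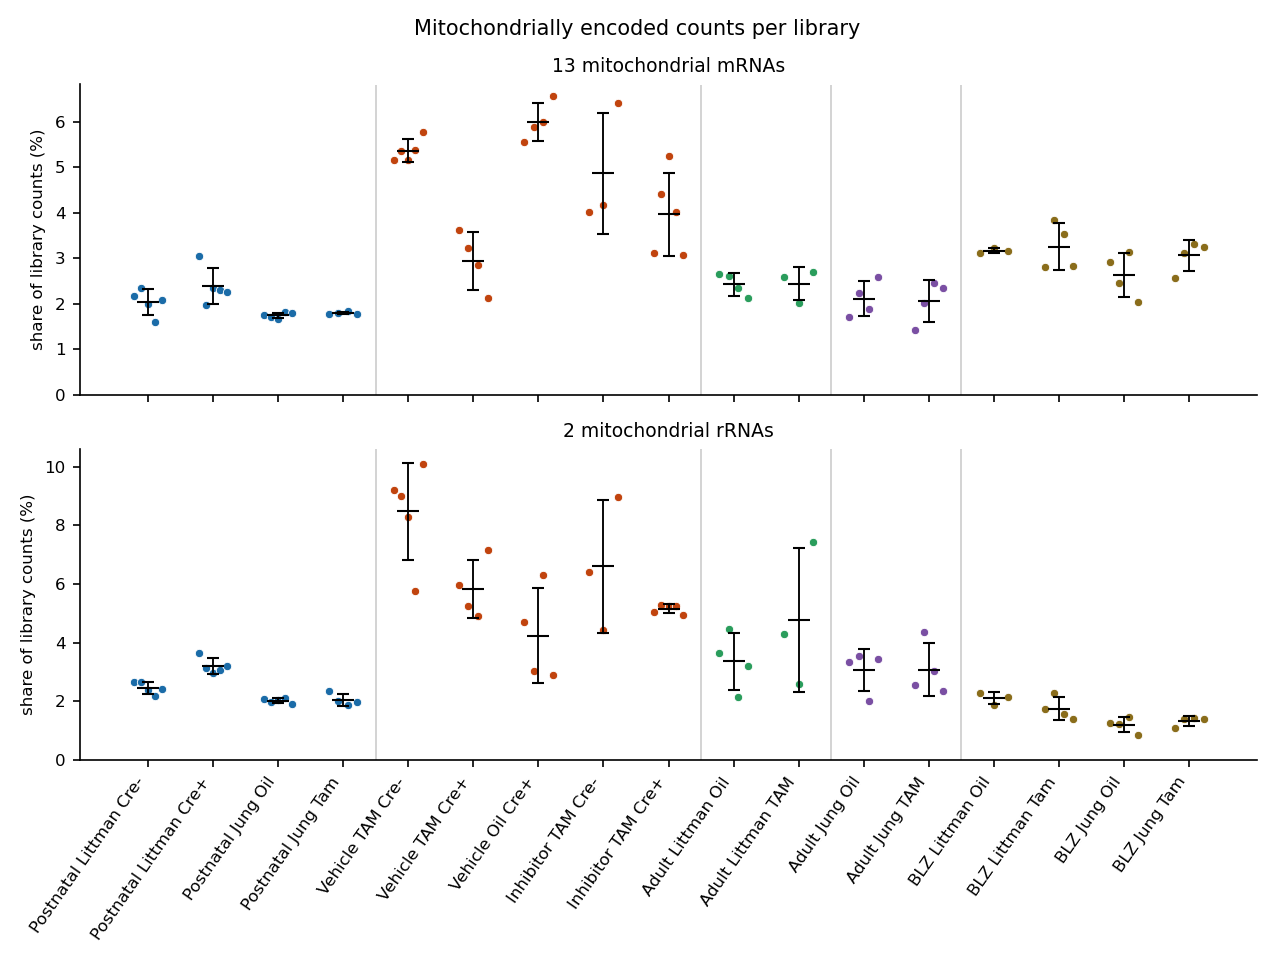
Each point is 1 library, as the percent of its counts from the 13 mRNAs (top) or the 2 rRNAs (bottom) of the mitochondrial genome; bars are group mean ± SD, colours and grey lines separate the 5 tables. The vehicle tamoxifen Cre+ libraries sit at 2.12% to 3.62% for mRNAs, below both vehicle control groups, while their rRNA values overlap those of the controls.

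Tests for single genes used edgeR's quasi-likelihood test over all genes of a table that passed a filter on low counts, and a gene is said to rise or fall where its Benjamini-Hochberg adjusted p is below 0.05. The filter was passed by 11 mitochondrial genes in the postnatal table, 14 in the BLZ-titled table, 13 with vehicle or UC2288 and 9 in each adult table. Below, levels of single genes are CPM scaled by TMM per library, and differences are log2 fold changes ± SE.

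In postnatal pups given tamoxifen, Littman Cre+ microglia had more of both rRNAs and of 4 mRNAs than Cre- microglia. Of the 11 genes tested, 6 rose and 0 fell, where 4.64% of all 7076 genes tested rose and 3.24% fell. The median over the 11 was 0.33, against a median near 0 over all genes. The differences were small, the largest being 1.49-fold for mt-Rnr1.

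mt-Rnr1, the 12S rRNA of the small ribosomal subunit, stood at 6424, 4746, 4766, 5028 and 5334 CPM in the Cre+ libraries and at 3834, 4167, 3791, 2668 and 3178 CPM in the Cre- libraries. All 5 Cre+ libraries were above all 5 Cre- libraries. The log2 fold change was 0.58 ± 0.090 (edgeR adjusted p = 6.61e-06). mt-Rnr2, the 16S rRNA of the large subunit, stood at 31758, 26910.1, 25216, 26316 and 27443 CPM in Cre+ and 22806, 22532, 19654, 18402 and 20641 CPM in Cre- libraries. These groups also did not overlap, with a log2 fold change of 0.40 ± 0.067 (edgeR adjusted p = 2.41e-05).

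Among complex I mRNAs, mt-Nd6 rose by 0.43 ± 0.089 (edgeR adjusted p = 0.000699), mt-Nd4 by 0.33 ± 0.082 (adjusted p = 0.00467) and mt-Nd5 by 0.33 ± 0.10 (adjusted p = 0.0196). mt-Nd1 at 0.14 ± 0.10 (edgeR adjusted p = 0.514) and mt-Nd2 at -0.036 ± 0.11 (adjusted p = 0.918) did not pass. mt-Cytb, the complex III subunit, was at 5496, 3488, 4151, 4239 and 4223 CPM in Cre+ and 3852, 4067, 3354, 3011 and 3451 CPM in Cre- libraries. Its groups overlapped, Cre+ library 1 stood far above the other 4, and the rise was 0.28 ± 0.084 (edgeR adjusted p = 0.0246). Without that library, adjusted p was 0.176 for mt-Cytb and 0.178 for mt-Nd5, and without Cre- library 4 it was 0.104 and 0.118, so 4 genes remained called in each case. mt-Cytb also lost its call without Cre- library 3 (adjusted p = 0.074) or 5 (adjusted p = 0.0581). mt-Co1, of complex IV, was at 0.28 ± 0.092 with an edgeR adjusted p of 0.0527.

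Markers of microglia and of other cell types differed in the same comparison. Of 8 microglia markers, 4 fell, where 3.24% of all genes fell. The summed level of the 8 was 17028 to 22018 CPM in Cre+ against 21922 to 25977 CPM in Cre- libraries. The summed monocyte markers, 3 of 4 in the table, ran from 21.4 to 68.2 CPM in Cre+ and 2.51 to 48.7 CPM in Cre- libraries, with Ly6c2 at 0 in Cre+ libraries and Plac8 higher by 2.31 ± 0.44 (edgeR adjusted p = 0.000206). The border macrophage markers, 3 of 5 in the table, summed to 100.2 to 275 CPM in Cre+ and 87.1 to 121 CPM in Cre- libraries, and Mrc1 was higher by 0.60 ± 0.18 (edgeR adjusted p = 0.0291). The endothelial markers, 3 of 4 in the table, summed to 8.03 to 29.6 against 21.3 to 43.6 CPM with Pecam1 lower (-1.61 ± 0.37, edgeR adjusted p = 0.00205), and the 4 astrocyte markers to 88.1 to 173 against 142 to 220.4 CPM with Slc1a3 lower (-0.48 ± 0.15, adjusted p = 0.0435) and Gfap at 0 in Cre+ libraries. Of 6 immediate early and dissociation genes tested, Klf6 rose (0.56 ± 0.12, edgeR adjusted p = 0.00159), where 4.64% of all genes rose. The neutrophil markers were at 0 in every Cre+ library and reached a summed 1104 CPM in 1 Cre- library. The part of these in the mitochondrial result was not tested.

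The other postnatal line gave no such difference. In Jung pups given tamoxifen against oil, 0 of the 11 genes passed edgeR's test, with 1 at an unadjusted p below 0.05 and 0 called by DESeq2, where 0.0848% of all genes were called. mt-Rnr1 was at 3216, 2484, 2474 and 2564 CPM with tamoxifen and 2856, 2583, 2765, 2772 and 2635 CPM with oil, ranges that overlap. The log2 fold change was -0.020 ± 0.10 for mt-Rnr1, 0.025 ± 0.071 for mt-Rnr2, 0.0088 ± 0.090 for mt-Cytb, 0.0010 ± 0.11 for mt-Nd1 and 0.25 ± 0.10 for mt-Co1. Tested directly, the Littman Cre difference minus the Jung tamoxifen difference passed for 1 of 11 genes, mt-Rnr1 (0.60 ± 0.13, edgeR adjusted p = 0.0142), where 0.283% of all genes passed as higher and 0.0989% as lower. mt-Rnr2 was next at 0.38 ± 0.10 (edgeR adjusted p = 0.0643), and mt-Nd1, mt-Co1 and mt-Cytb were at 0.14, 0.022 and 0.28 without passing. The mt-Rnr1 call was lost without Jung tamoxifen library 2 (adjusted p = 0.0687) or 3 (adjusted p = 0.066). The contrast pairs a genotype difference in 1 line with a drug difference in the other, so line and design cannot be told apart.

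Set directly against each other after tamoxifen, Littman Cre+ pups were above Jung pups in 8 of 11 mitochondrial genes and below in 0, where 3.79% of all genes were called higher and 2.93% lower. mt-Rnr1 led at 0.97 ± 0.10 (edgeR adjusted p = 3.93e-10), followed by mt-Rnr2 at 0.65, mt-Nd5 at 0.64, mt-Nd6 at 0.52, mt-Nd1 at 0.48, mt-Cytb at 0.39, mt-Nd4 at 0.38 and mt-Co1 at 0.37. mt-Co1 alone of these depended on 1 library: its edgeR adjusted p was 0.0945 without Jung tamoxifen library 4 and 0.0518 without Cre+ library 1. The groups without active recombinase also differed, as Jung oil pups had less mt-Rnr1 (-0.37 ± 0.091, edgeR adjusted p = 0.0273) and mt-Rnr2 (-0.27 ± 0.067, adjusted p = 0.0359) than Littman Cre- pups, 2 of 11 genes where 0.537% of all genes fell and 0.269% rose. mt-Nd1 at -0.34 ± 0.10, mt-Co1 at -0.34 ± 0.095 and mt-Cytb at -0.12 ± 0.085 did not pass. Both calls are narrow, since leaving out 1 library ended each in 7 of 10 fits, with adjusted p up to 0.109 for mt-Rnr1 (without Cre- library 2) and 0.107 for mt-Rnr2 (without Cre- library 1), and without Cre- library 4 the count rose to 6. These comparisons share groups with those above and are not independent of them, and the Jung oil pups differ from the Cre- pups in line, reporter, Cx3cr1 dose and drug at once.

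In vehicle-treated Littman pups the mitochondrial mRNAs were lower in Cre+ microglia after tamoxifen than after oil, while the rRNAs were not. Of 13 genes tested 10 fell and 0 rose, where 15.2% of all 4953 genes tested fell and 16.3% rose. The 10 are all the mRNAs that passed the filter, from complex I (mt-Nd1, mt-Nd2, mt-Nd4, mt-Nd5, mt-Nd6), complex III (mt-Cytb), complex IV (mt-Co1, mt-Co2, mt-Co3) and ATP synthase (mt-Atp6). The median over the 13 was -1.06. For each of the 10, every tamoxifen library was below every oil library.

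mt-Cytb stood at 4852, 4132, 3471 and 3128 CPM in the 4 tamoxifen libraries and 9817, 10959, 11785 and 11495 CPM in the 4 oil libraries. The highest tamoxifen library was far below the lowest oil one. The log2 fold change was -1.50 ± 0.22 (edgeR adjusted p = 4.45e-06). mt-Nd4 stood at 4305, 3700.2, 3162 and 2704 CPM with tamoxifen and 8807, 10287, 9228 and 9646 CPM with oil. The groups were again apart, with a log2 fold change of -1.45 ± 0.22 (edgeR adjusted p = 5.73e-06).

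mt-Co1, the catalytic subunit of cytochrome oxidase, stood at 1044, 1085, 828 and 683 CPM with tamoxifen and 2358, 2666, 3189 and 9094 CPM with oil. Oil library 4 was far above the other 3 oil libraries, which were themselves above every tamoxifen library. The log2 fold change of mt-Co1 was -2.24 ± 0.31 (edgeR adjusted p = 1.47e-06), and -1.59 (adjusted p = 1.91e-05) without that library. The other genes with a shared end that were tested also fell, with mt-Co3 at -2.85 ± 0.50 (edgeR adjusted p = 5.36e-05), mt-Co2 at -2.03 ± 0.39 (adjusted p = 0.000177) and mt-Atp6 at -1.42 ± 0.35 (adjusted p = 0.00211). These 3 genes had few counts: over the whole table mt-Co3 had 130, mt-Atp6 418 and mt-Co2 760, against 29612 for mt-Cytb. The sequences above show the shared ends of mt-Co1, mt-Co2 and mt-Co3. mt-Nd1 (-0.93 ± 0.20, edgeR adjusted p = 0.000708), mt-Nd6 (-1.01), mt-Nd5 (-0.85) and mt-Nd2 (-0.79) had the smallest falls.

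The rRNAs of the same libraries did not show this. mt-Rnr1 stood at 18424, 15027, 15190.0 and 18799.9 CPM with tamoxifen and 11303, 6278, 23364 and 8363 CPM with oil, so that the tamoxifen values lay within the oil range. The log2 fold change of 0.45 ± 0.33 did not pass (edgeR adjusted p = 0.3), nor did mt-Rnr2 at 0.30 ± 0.23 (adjusted p = 0.34). The tRNA mt-Tp was at -1.06 ± 0.49 (edgeR adjusted p = 0.098). Leaving out each library in turn gave 10 or 11 falls, and 1 rise only without oil library 3.

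**Figure D3:**
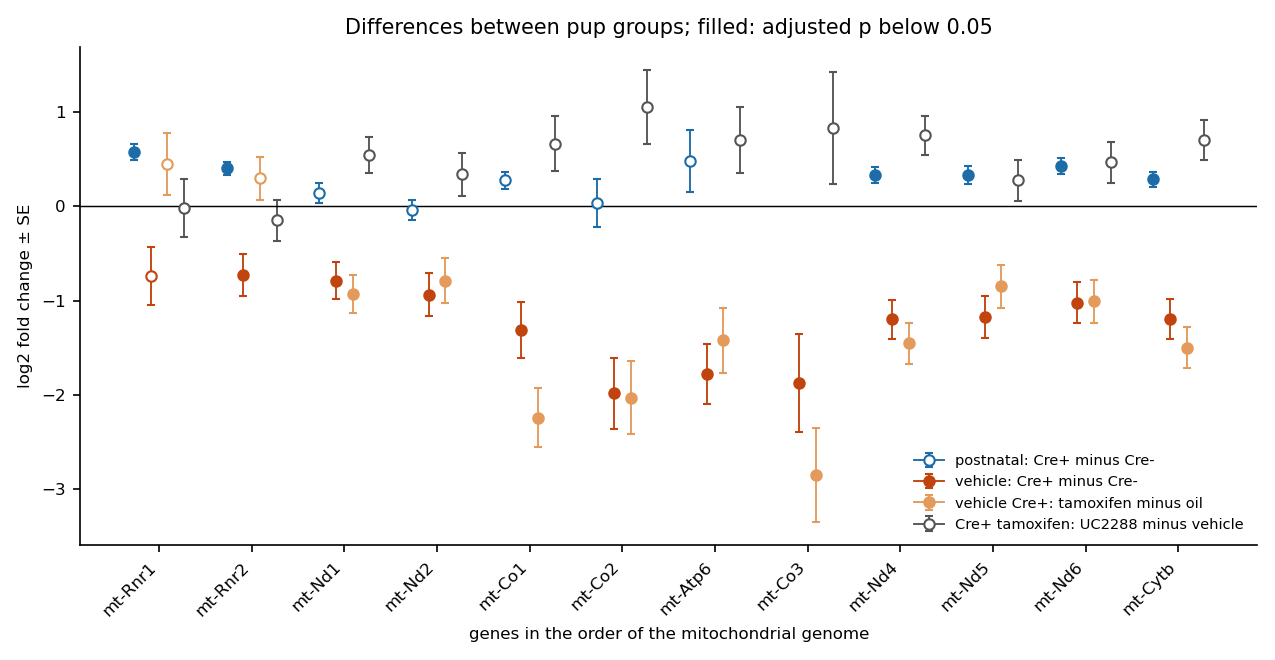
Points are log2 fold changes ± SE of the mitochondrial mRNAs and rRNAs in 4 pup comparisons, filled where the edgeR adjusted p is below 0.05, with genes in genome order. In vehicle pups every mRNA point of both comparisons lies below 0, from -0.79 to -2.85 for tamoxifen against oil, whereas the filled postnatal points lie above 0. The lowest point, mt-Co3 at -2.85, rests on 130 counts in the whole vehicle and UC2288 table.

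Set against the Cre- pups that had the same tamoxifen, the vehicle Cre+ microglia were low in the mRNAs and, to a lesser degree, in an rRNA. Of the 13 genes 11 fell and 0 rose, where 13% of all genes fell and 14.2% rose, and the median was -1.18. This comparison shares its tamoxifen Cre+ libraries with the one above. mt-Cytb was at 7927, 9600.1, 8547, 7456 and 11098 CPM in the 5 Cre- libraries, all of them above the 4 Cre+ libraries (-1.20 ± 0.21, edgeR adjusted p = 6.45e-05). mt-Nd4 was at 7394, 7868, 7905, 7496 and 9179 CPM in Cre- libraries, again all above Cre+ (-1.20 ± 0.21, adjusted p = 5.11e-05 in edgeR). mt-Co2 (-1.98 ± 0.37), mt-Co3 (-1.87 ± 0.52), mt-Atp6 (-1.78 ± 0.32) and mt-Co1 (-1.31 ± 0.29, edgeR adjusted p = 0.00115) fell most. Of these, mt-Co2, mt-Co3 and mt-Atp6 rest on the few counts given above. Complex I mRNAs fell by smaller amounts, with mt-Nd5 at -1.18, mt-Nd6 at -1.02, mt-Nd2 at -0.94 and mt-Nd1 at -0.79.

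mt-Rnr2 stood at 36378, 33905, 29569 and 52022 CPM in Cre+ and 69167, 63293, 63626, 43782 and 74775 CPM in Cre- libraries. The groups overlapped, and the fall of -0.73 ± 0.22 (edgeR adjusted p = 0.0128) was lost without Cre+ library 3 (adjusted p = 0.0694). mt-Rnr1 was at -0.74 ± 0.31 and did not pass (edgeR adjusted p = 0.0753), its Cre- libraries running from 13049 to 39987 CPM.

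Other features of the vehicle Cre+ tamoxifen libraries moved with these falls. The summed level of 8 microglia markers was 7562 to 8771 CPM there, 17829 to 20603 CPM in oil Cre+ and 14558 to 17092 CPM in tamoxifen Cre- libraries. Of the 8, 5 fell in each comparison, where 15.2% of all genes fell against oil and 13% against Cre-. Summed monocyte markers, all 4 in the table, ran from 95.6 to 255 CPM, against 0 to 21.7 and 0 to 25.8 CPM in the controls, with Ly6c2 at 0 in all 3 groups. Summed border macrophage markers, 4 of 5 in the table, ran from 82.0 to 172 CPM against 301 to 369 and 294 to 482 CPM, with Cd163 at 0 in both Cre+ groups. Summed astrocyte markers, 3 of 4 in the table, ran from 58.7 to 91.9 CPM against 28.9 to 36.9 and 20.6 to 51.3 CPM, with Slc1a3 higher in both comparisons (1.64 and 1.27). Of 6 immediate early and dissociation genes tested, Junb (1.05 and 0.99) and Klf6 (0.98 and 1.24) rose in both comparisons, and Jun fell against Cre- (-0.81). Of all genes, 16.3% rose against oil, and 14.2% rose and 13% fell against Cre-. Neutrophil markers were at 0 in all 3 groups. The number of genes with any count was 11145 to 12681, against 9948 to 11107 in oil and 10591 to 11143 in Cre- libraries. The part of these features in the mitochondrial falls was not tested. The direction did not depend on the scaling, since the count was 10 and 11 also with library totals in place of TMM and with scaling on nuclear counts alone, although library totals put the median of all genes at 0.13 and 0.18 in these comparisons.

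**Figure D4:**
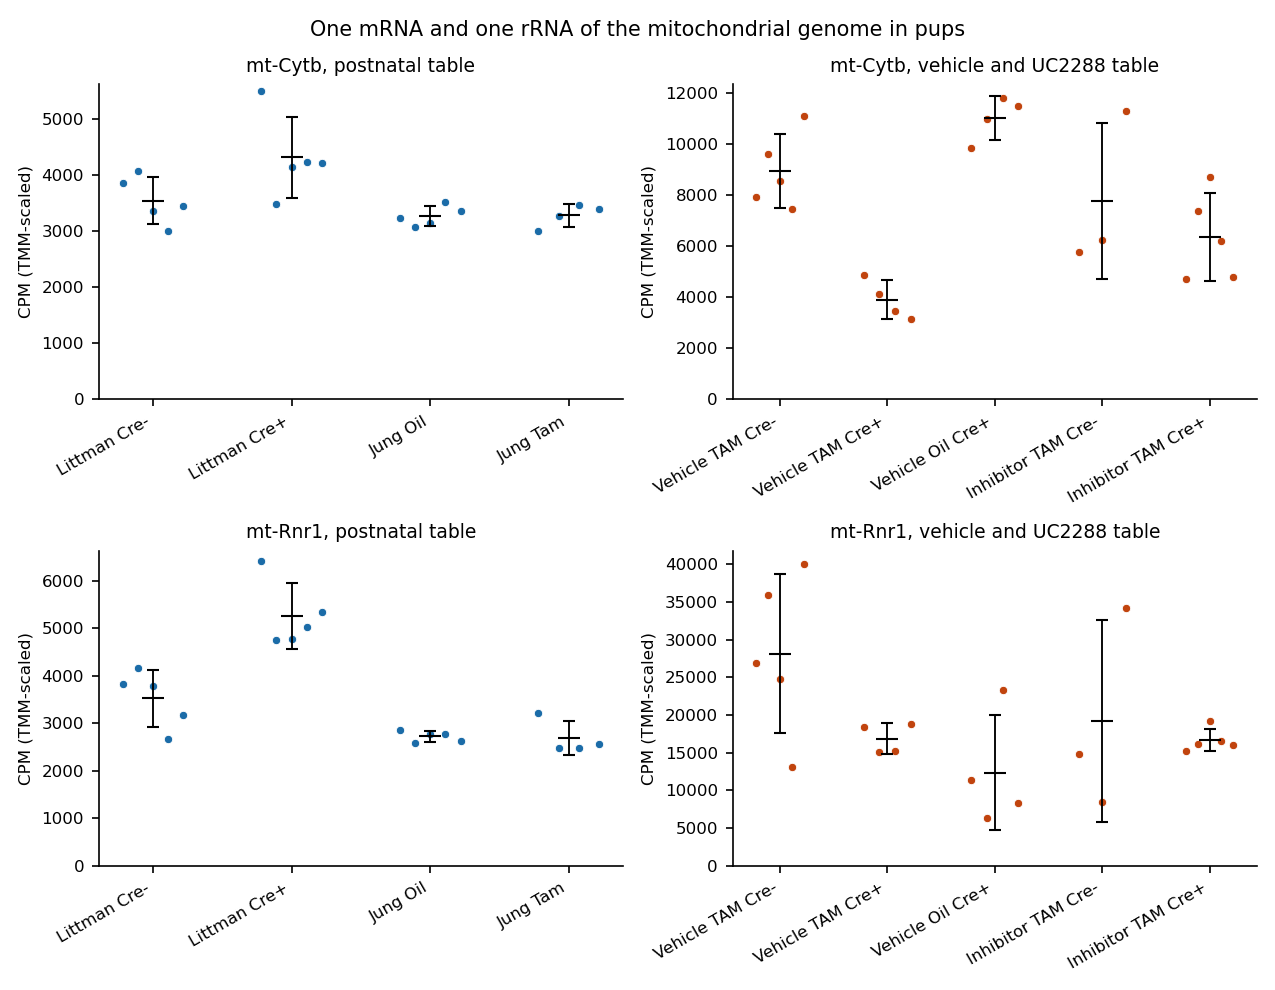
Points are CPM of mt-Cytb (top) and mt-Rnr1 (bottom) in single libraries of the postnatal table (left) and the vehicle and UC2288 table (right), with mean ± SD. The vehicle tamoxifen Cre+ libraries lie at 3128 to 4852 CPM for mt-Cytb, below both vehicle controls, but within the range of the oil group for mt-Rnr1.

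UC2288 gave higher mean mRNA levels in Cre+ tamoxifen pups that did not pass the test. Of the 13 genes 0 were called by edgeR, where 0.727% of all genes were, 6 had an unadjusted p below 0.05, and DESeq2 called 3. mt-Nd4 stood at 3715, 6193, 8165, 6553 and 4638 CPM in the 5 UC2288 libraries, against 4305, 3700.2, 3162 and 2704 CPM in the 4 vehicle libraries. mt-Cytb stood at 4691, 7379, 8710.5, 6198 and 4775 CPM with UC2288, against 4852, 4132, 3471 and 3128 CPM with vehicle. For mt-Cytb the lowest UC2288 libraries came down into the vehicle range and the highest reached that of the Cre- pups. The log2 fold change was 0.75 ± 0.21 for mt-Nd4 (edgeR adjusted p = 0.063) and 0.70 ± 0.21 for mt-Cytb (adjusted p = 0.0849). mt-Nd1 was at 0.54 ± 0.19, mt-Co1 at 0.66 ± 0.29, mt-Rnr1 at -0.017 ± 0.31 and mt-Rnr2 at -0.15 ± 0.22. Single libraries decided the count, as without UC2288 Cre+ library 1 the adjusted p was 0.0278 for mt-Cytb and 0.0493 for mt-Nd1 and 3 genes were called, and without library 5 it was 0.0456 for mt-Cytb. The microglia markers of the UC2288 Cre+ libraries summed to 8576 to 19352 CPM and the monocyte markers to 89.8 to 299 CPM, and their part was not tested.

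In Cre- tamoxifen pups UC2288 gave values below 0 for all 13 genes with TMM scaling (mt-Nd1 turned to 0.0011 with library totals), between -0.58 for mt-Co1 and -0.10 for mt-Nd1, with mt-Cytb at -0.20 ± 0.23 and mt-Rnr2 at -0.42 ± 0.24. None was called by edgeR (0 of 13, where 0.0202% of all genes were called), by DESeq2 (0) or at an unadjusted p below 0.05 (0). The 3 UC2288 Cre- libraries were far apart, with mt-Rnr1 at 14877, 8443 and 34244 CPM. In 1 library of this group the neutrophil markers summed to 612 CPM. With UC2288 in both genotypes, Cre+ against Cre- gave 0 calls of 13 in edgeR and 0 in DESeq2, where 3.98% of all genes were called by edgeR, and 1 gene had an unadjusted p below 0.05. mt-Cytb was at -0.29 ± 0.22, mt-Nd1 at -0.15 ± 0.21, mt-Co1 at -0.063 ± 0.31 and mt-Rnr2 at -0.45 ± 0.23.

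The test of whether UC2288 acted differently in the 2 genotypes gave positive values for all 13 genes and 0 calls in edgeR, where 2.1% of all genes were called. The values included 0.96 ± 0.30 for mt-Nd4 (edgeR adjusted p = 0.0791), 0.90 ± 0.31 for mt-Cytb (adjusted p = 0.0962) and 1.25 ± 0.43 for mt-Co1 (adjusted p = 0.0971). An unadjusted p below 0.05 was found for 7 genes, and DESeq2 called 2. Without UC2288 Cre- library 3 the count was 7, with mt-Cytb at an adjusted p of 0.00915 and mt-Nd1 at 0.0154, and without UC2288 Cre+ library 1 it was 4. The result therefore rests on which libraries of small groups are kept.

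Adult mice showed no called difference in mitochondrial transcripts after tamoxifen. In adult Littman heterozygotes edgeR called 0 of 9 genes, where 0.0181% of all genes were called, 1 had an unadjusted p below 0.05, and DESeq2 called 0. The gene with the lowest unadjusted p was mt-Rnr2, at 33933, 19933 and 62123 CPM in 3 tamoxifen libraries and 25835, 27625, 15654 and 27563 CPM in 4 oil libraries. Its groups overlapped, and the log2 fold change was 0.68 ± 0.28 (edgeR adjusted p = 0.998), although without the filter on low counts it was called (adjusted p = 0.0208). mt-Cytb was at 0.14 ± 0.16, mt-Nd1 at 0.083 ± 0.19 and mt-Co1 at -0.12 ± 0.41. In adult-titled Jung mice edgeR and DESeq2 both called 0 of 9, with 0 at an unadjusted p below 0.05 and 0% of all genes called. There mt-Cytb was at 0.034 ± 0.19, mt-Nd1 at 0.0066 ± 0.20, mt-Co1 at 0.22 ± 0.30 and mt-Rnr2 at -0.021 ± 0.23. The SEs in these adult fits ran from 0.15 to 0.42, so that a difference of the size of mt-Cytb's in postnatal pups was not detectable here.

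In the BLZ-titled table tamoxifen against oil gave 0 calls of 14 in Littman mice, where 0.0581% of all genes were called, and 0 of 14 in Jung mice, where 0% were; DESeq2 also called 0 in both. At an unadjusted p below 0.05 there was 1 gene in Littman and 2 in Jung mice. In Littman mice mt-Cytb was at 0.048 ± 0.21, mt-Nd1 at 0.13 ± 0.21, mt-Co1 at -0.14 ± 0.28 and mt-Rnr2 at -0.31 ± 0.22. In Jung mice all 14 values were above 0, with mt-Cytb at 0.30 ± 0.19, mt-Nd1 at 0.26 ± 0.19, mt-Co1 at 0.29 ± 0.27 and mt-Rnr2 at 0.14 ± 0.20. The tRNA mt-Ti had the largest value in Littman mice, -1.67 ± 0.48, with every tamoxifen library below every oil library, but did not pass (edgeR adjusted p = 0.264). The difference between the lines in the effect of tamoxifen gave 0 calls by edgeR and 0 by DESeq2, where 0% of all genes were called, and 1 gene at an unadjusted p below 0.05.

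The 2 lines of that table differed from each other in the rRNAs. After oil, Littman mice were above Jung mice in 4 of 14 genes, where 6.68% of all genes were called higher and 2.42% lower. mt-Rnr1 stood at 6696, 4877 and 6355 CPM in the 3 Littman oil libraries and 2395, 2573, 3172 and 1508 CPM in the 4 Jung oil libraries. The lines did not overlap, at 1.31 ± 0.23 (edgeR adjusted p = 0.000176). mt-Rnr2 was higher by 0.94 ± 0.22 (edgeR adjusted p = 0.00395), mt-Co1 by 0.97 ± 0.28 (adjusted p = 0.0271) and mt-Co2 by 0.98 ± 0.31 (adjusted p = 0.0384). The calls of mt-Co1 and mt-Co2 ended with library totals in place of TMM (adjusted p = 0.0512 and 0.0757), which puts the median of all genes at -0.28, and without any 1 of Jung oil libraries 2 and 4 or of the 3 Littman oil libraries, while those of the rRNAs held. mt-Cytb at 0.50 ± 0.21 and mt-Nd1 at 0.43 ± 0.21 did not pass. After tamoxifen mt-Rnr1 alone was called, 1 of 14 genes where 3.85% of all genes were called higher and 1.61% lower, at 0.75 ± 0.21 (edgeR adjusted p = 0.029). That call was lost without Littman tamoxifen library 2 (adjusted p = 0.19) or Jung tamoxifen library 1, 2 or 4. mt-Rnr2 was at 0.49 ± 0.20, mt-Cytb at 0.25 ± 0.19, mt-Nd1 at 0.30 ± 0.19 and mt-Co1 at 0.53 ± 0.26. Line, the reporter allele and, by the labels' conflict, BLZ945 cannot be told apart here. Neutrophil markers were at 0 in every Jung library and reached a summed 3084 CPM in Littman oil and 2489.6 CPM in Littman tamoxifen libraries. Summed monocyte markers, all 4 in the table, ran from 19.2 to 89.9 CPM in Littman against 5.12 to 15.3 CPM in Jung oil libraries, and from 14.0 to 36.6 against 0 to 5.23 CPM after tamoxifen. Of the 8 microglia markers C1qa was higher in Littman mice after oil (0.78), and Sall1 (-0.70), Fcrls (-0.998) and P2ry12 (-0.85) were lower after tamoxifen. The part of these markers was not tested.

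The nuclear genes whose products work with these transcripts were counted in the same fits. For the nuclear-encoded respiratory chain, 11 of 77 genes rose and 0 fell in postnatal Littman Cre+ against Cre- pups (median 0.31), where 4.64% of all genes rose and 3.24% fell, and DESeq2 called 7. Uqcrfs1, the Rieske protein of complex III, rose by 0.77 ± 0.15 (edgeR adjusted p = 0.000289) and Cox4i1 of complex IV by 0.61 ± 0.13 (adjusted p = 0.000624). In vehicle pups 29 of 80 fell and 0 rose between tamoxifen and oil (median -0.64), where 15.2% of all genes fell, and 19 of 80 fell and 0 rose between Cre+ and Cre- (median -0.51), where 13% fell. DESeq2 called 22 and 12. Cox7a2l, which joins complexes III and IV, fell by -1.59 ± 0.24 (edgeR adjusted p = 7.47e-06) and -1.26 ± 0.23 (adjusted p = 0.000123), and Ndufs8 of complex I by -1.53 and -1.35. So in each of these 3 comparisons the called nuclear respiratory genes had the same sign as the called mitochondrial mRNAs. In the BLZ-titled mice given oil, 22 of 74 were higher in the Littman than in the Jung line and 0 lower (median 0.72), where 6.68% of all genes were higher, led by Cox4i1 (1.47 ± 0.24, edgeR adjusted p = 9.09e-05). UC2288 in Cre+ tamoxifen pups raised 1 of 80, Ndufa13 (0.92 ± 0.23, edgeR adjusted p = 0.0465), where 0.727% of all genes were called in either direction.

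Mitochondrial ribosomal protein genes were called at about the rate of all genes or below in both vehicle comparisons, and DESeq2 made fewer calls among them. Over the 18 comparisons edgeR called 15 of 643 tests of these genes and DESeq2 3. In postnatal Littman Cre+ pups 3 of 42 rose, Mrpl30 (0.88), Mrpl42 (0.84) and Mrpl33 (0.80), where 4.64% of all genes rose. In vehicle pups 4 of 32 fell with tamoxifen against oil and 4 of 32 in Cre+ against Cre-, Mrpl19 in both (-1.22 and -1.15), where 15.2% and 13% of all genes fell. Genes of mitochondrial transcription and DNA maintenance, such as the polymerase and its factors, were tested 119 times over the 18 comparisons, with 0 called by edgeR, 3 at an unadjusted p below 0.05 and 0 called by DESeq2. Regulators of mitochondrial biogenesis were tested 69 times, with 0 called by edgeR, 0 at an unadjusted p below 0.05 and 0 called by DESeq2. Of 7 genes of mitophagy and of mitochondrial fission and fusion, tamoxifen against oil in vehicle Cre+ pups raised Dnm1l (1.32), the fission GTPase, and lowered its receptors Mff (-1.005) and Fis1 (-0.82), where 16.3% of all genes rose and 15.2% fell. Of the mitochondrial stress response, Hspe1, the co-chaperonin of the matrix, was called in postnatal Cre+ against Cre- pups (0.52, 1 of 5 where 4.64% of all genes rose), in BLZ-titled Littman against Jung oil mice (1.57, 1 of 5 where 6.68% were higher) and in UC2288 Cre+ against Cre- pups (0.77, 1 of 4 where 3.98% were called in either direction). Among genes of mitochondrial RNA processing and decay, Pnpt1, which encodes the polynucleotide phosphorylase of mitochondria, rose in vehicle Cre+ tamoxifen pups against oil (1.97 ± 0.44, edgeR adjusted p = 0.000856) and against Cre- (1.01 ± 0.35, adjusted p = 0.0303). Lrpprc, whose protein stabilises mitochondrial mRNAs, fell against Cre- (-1.03 ± 0.29, edgeR adjusted p = 0.00832). These were 1 and 2 of 5 genes tested, where 16.3% of all genes rose and 15.2% fell against oil and 14.2% rose and 13% fell against Cre-, so the counts are not set apart from those of all genes. Mitochondrial translation factors were tested 72 times over the 18 comparisons, with 6 called by edgeR and 4 by DESeq2. Among them Gfm2, which recycles mitochondrial ribosomes, rose in vehicle Cre+ tamoxifen pups against oil (0.94) and against Cre- (1.08). Of all genes 16.3% and 14.2% rose there. Gfm2 fell in postnatal Littman Cre+ against Cre- pups (-0.41 ± 0.084), where 3.24% of all genes fell.

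The nuclear pseudogenes that carry copies of mitochondrial sequence moved with the mRNAs in vehicle pups. Of 8 tested, 5 fell with tamoxifen against oil (median -1.58) and 8 fell in Cre+ against Cre- (median -2.03), where 15.2% and 13% of all genes fell. Leaving out 1 library gave 3 to 7 (3 without tamoxifen Cre+ library 3) and 5 to 8 (5 without the same library). Gm28661, which holds the copy of the mt-Co2 end, was at 1622 ± 304 CPM (SD, n = 4) with oil and 530.2 ± 95.2 CPM (n = 4) with tamoxifen (-1.61 ± 0.32, edgeR adjusted p = 0.000289). With UC2288 in Cre+ pups 2 of 8 were called higher, where 0.727% of all genes were called. Gm10925, which holds the copy of mt-Atp6, stood at 70.2, 75.9, 167, 1976 and 77.3 CPM with UC2288 and 54.4, 41.9, 32.8 and 54.6 CPM with vehicle (3.28 ± 0.75, edgeR adjusted p = 0.0365), so that UC2288 library 4 stood far above the rest. Without it Gm10925 was at 1.05 (edgeR adjusted p = 0.343) and Gm13341 at 0.97 (adjusted p = 0.149, against 1.25 ± 0.29 and 0.0373 with it), and 0 of 8 were called. Leaving out any 1 library gave 0 to 5 calls, with 0 also without vehicle library 1, 3 or 4 and 5 without UC2288 library 1 or 5. In the vehicle and UC2288 table these pseudogenes held 25584 counts, against 3340 in the postnatal table. Reads of identical sequence cannot be told apart between a pseudogene and the mitochondrial gene, so these values are not a second measure of either.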

How the data were processed

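Counts of molecular identifiers per gene were deposited by the authors as 5 tables of raw counts; HISAT2, featureCounts, UMI-tools and Trim Galore were used on GRCm38 per the submitters' processing notes, which give no versions. Per the labels' protocols, CEL-Seq2 libraries were made from 15 µL of the 30 µL lysate of 500 sorted cells, with a barcode of 9 bases, a molecular identifier of 10 bases and an insert read of 81 bases. Neither the strand setting nor the treatment of reads with several matches is given there. Groups came from the sample titles.

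All genes of a table entered 1 fit with every group of that table (edgeR 4.0.16 and limma 3.58.1 in R 4.3.3, filterByExpr, TMM, glmQLFit and glmQLFTest), and p-values were adjusted by the Benjamini-Hochberg method over all genes tested, with calls at an adjusted p below 0.05. This was done for 18 comparisons, 3 of them differences of differences. DESeq2 1.42.0, no filter on low counts, library totals without TMM, scaling on nuclear counts, the groups of a comparison alone, the replicate number as a block and leaving out each library were tried as alternatives. The fits were tested on simulated counts. Shares are percent of all counts of a library. The mitochondrial genes named are mt-Co1, mt-Cytb, mt-Nd1 and mt-Rnr2 in every comparison where they were tested, and up to 8 called genes by smallest adjusted p; from each list of nuclear partner genes, up to 4 called genes per comparison by smallest adjusted p. Others are named where a sentence accounts for all genes of a count or singles out a value, and were chosen after their values were seen. The genes and lists were chosen with earlier results of these data known. mt-Tf in the vehicle and UC2288 table and mt-Te, mt-Tm and mt-Tn in the adult Littman table had a line but no counts. Transcript sequences came from GENCODE on GRCm38, and ends were searched letter for letter in 141730 annotated nuclear transcripts, in both orientations.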

Additional observations from a re-analysis of the deposited data

Results flagged for a closer look

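Single libraries stood apart from their group by Dixon's criterion for 13 of 199 values examined, and chance alone gives about 5% of groups. In postnatal Littman Cre+ library 1 the mitochondrial share was 6.69% against 5.12% to 5.45% in the other 4, and mt-Nd5 was at 5217 CPM against 3271 to 3649.6 CPM. In Jung tamoxifen library 1 of the same table mt-Rnr1 was at 3216 CPM against 2474 to 2564 CPM. In vehicle oil Cre+ library 4 mt-Co1 was at 9094 CPM against 2358 to 3189 CPM, and in vehicle tamoxifen Cre- library 5 mt-Nd4 was at 9179 CPM against 7394 to 7905 CPM. In UC2288 tamoxifen Cre+ library 4 the pseudogene Gm10925 was at 1976 CPM against 70.2 to 167 CPM in the other 4. In BLZ-titled Jung tamoxifen library 1 mt-Co1 was at 481 CPM against 692 to 735 CPM and mt-Nd4 at 4436 CPM against 6065 to 6216 CPM. In adult-titled Jung mice, oil library 3 had an rRNA share of 2.01% against 3.34% to 3.53%, oil library 4 had mt-Nd4 at 3773 CPM against 2643 to 2824 CPM, and tamoxifen library 1 had mt-Cytb at 2414 CPM against 3567 to 3613 CPM. In adult Littman oil library 3 mt-Nd1 was at 2428 CPM against 3038 to 3153 CPM and mt-Rnr2 at 15654 CPM against 25835 to 27625 CPM. For mt-Rnr1 in postnatal pups the Littman Cre difference was called as exceeding the Jung tamoxifen difference, by 0.60 on the log2 scale. Line and design cannot be told apart in that contrast, and the call was lost in 2 of 19 fits that left out 1 library. The causes were not tested.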

How the results depend on the processing

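Apart from fits that leave out a library, 89 counts of called mitochondrial genes under an alternative stayed within 1.5 times the reported count and 15 did not; the cause was not tested. For postnatal Jung oil against Littman Cre- (2 genes) the count was 4 without the filter, 5 with the groups of the comparison alone and 4 with the replicate block. For the postnatal Littman Cre difference minus the Jung tamoxifen difference (1 gene) it was 2 with DESeq2 and 2 with the replicate block. For the BLZ-titled lines after oil (4 genes) it was 6 without the filter, 2 with library totals, 2 with the groups alone and 2 with the replicate block; after tamoxifen (1 gene) it was 2 with library totals and 0 with the block. For postnatal Littman Cre+ against Cre- (6 genes) the groups alone gave 4. UC2288 in Cre+ pups (0 genes) gave 3 with DESeq2 and 2 without the filter, the UC2288 difference (0 genes) 2 and 2, and adult Littman mice (0 genes) 1 without the filter. Leaving out 1 library gave counts of 0 to 6 for Jung oil against Cre-, 0 to 2 for the postnatal difference, 2 to 8 and 0 to 1 for the BLZ-titled lines after oil and tamoxifen, 0 to 3 for UC2288 in Cre+ pups, 0 to 7 for the UC2288 difference and 4 to 7 for postnatal Littman Cre+ against Cre-. Without the rRNAs the difference in share was 0.374 percentage points in place of 1.10 for postnatal Cre+ against Cre-, 0.634 for 1.75 for Littman Cre+ against Jung, -0.311 for -0.722 for Jung oil against Cre-, 0.575 for 1.44 for the BLZ-titled lines after oil, -3.14 for -1.47 for vehicle tamoxifen against oil and -2.74 for -5.07 for vehicle Cre+ against Cre-.

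Some values that had not been called changed sign. Not all of them were near 0, as mt-Co1 in adult-titled Jung mice was reported at 0.22. mt-Nd1 in postnatal Jung pups was -0.0022 with DESeq2, -0.0012 with library totals and -0.0035 with nuclear scaling; mt-Co1 in the postnatal difference was -0.020 with library totals; mt-Nd1 with UC2288 in Cre- pups was 0.0011 with library totals; mt-Nd1 in adult-titled Jung mice was -0.027 with library totals and -0.0065 with the replicate block; and mt-Co1 in adult Littman mice was 0.076 with the block. Leaving out 1 library gave mt-Nd1 -0.019 to 0.23 in postnatal Cre+ against Cre-, and in Jung pups mt-Cytb -0.020 to 0.049, mt-Nd1 -0.020 to 0.013 and mt-Rnr2 -0.043 to 0.063. In the postnatal difference it gave mt-Co1 -0.044 to 0.069 and mt-Nd1 -0.021 to 0.23. In BLZ-titled mice it gave mt-Cytb -0.070 to 0.14 (Littman) and mt-Rnr2 -0.011 to 0.27 (Jung). With UC2288 it gave mt-Rnr2 -0.27 to 0.041 in Cre+ pups, mt-Nd1 -0.46 to 0.071 in Cre- pups, and between genotypes mt-Cytb -0.47 to 0.073, mt-Co1 -0.20 to 0.23 and mt-Nd1 -0.32 to 0.21. In adult-titled Jung mice it gave mt-Cytb -0.045 to 0.18, mt-Co1 -0.047 to 0.51, mt-Nd1 -0.091 to 0.17 and mt-Rnr2 -0.24 to 0.095, and in adult Littman mice mt-Co1 -0.74 to 0.16 and mt-Nd1 -0.063 to 0.30.

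In no comparison did every pair of libraries with the same replicate number deviate together (correlation above 0.1), so the numbers were not taken to pair libraries. For adult-titled Jung tamoxifen against oil 3 of 4 pairs did (0.341, 0.158 and 0.248, the other at -0.161), so pairing there is not settled. With the block, the counts were 7, 8, 10 and 11 for postnatal Cre+ against Cre-, Littman Cre+ against Jung, vehicle tamoxifen against oil and vehicle Cre+ against Cre-. Most of the genes with few counts, mt-Atp8, mt-Nd3, mt-Nd4l and the tRNAs, were tested in no table. Their counts did not follow depth, as mt-Nd3 had 4 in the deeper postnatal table and 95 in the BLZ-titled table. What limits them was not tested.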
